A study of Homo sapiens with 9 samples.

Results

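The genes described here are 34 that encode nucleolar proteins, parts of the RNA polymerase I machinery and ribosome assembly factors. They are a fixed list of symbols with no threshold on any value, although the list was drawn up with earlier results of these data known. Each symbol matched 1 of the 58243 Ensembl genes counted. All 34 passed the filter on low counts, as did 15163 genes in all, and the lowest count of any of them in any library was 296 reads, for PPAN. They were measured by bulk RNA-seq in DOHH2 cells, a human lymphoma B-cell line that stems from a follicular lymphoma after transformation. The design had 3 conditions with 3 libraries each. Day 0 libraries came from cultured DOHH2 cells of the day of grafting. Day 19 and day 40 libraries came from DOHH2 cells that had grown in RAGγc mice, the recipient strain named in the labels. Those cells were taken from digested femurs, depleted of mouse CD45 and Ter119 cells with beads and sorted on human CD20. No group carries another treatment or genetic change in the labels. DOHH2 is 1 line, and the labels do not give the age, sex or number of the mice, whether femurs were pooled, or whether cultured cells were also sorted.

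Ribosomes are built in the nucleolus. RNA polymerase I transcribes the ribosomal RNA precursor, small nucleolar RNPs (snoRNPs) guide its chemical modification and cleavage, and assembly factors fold and trim the small and large subunits before export. Growing cells spend much of their transcription on this pathway, and MYC family factors, which bind the E-box CACGTG, are known to drive many of its genes.

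That E-box is shown here because it is a motif known from promoters of this pathway. It was searched as CACGTG, which reads the same on both strands, in windows from 250 bases before to 50 bases after each gene's start. RefSeq promoters (GRCh38.p14) were at hand for 29 of the 34 genes, and not for NOP58, BOP1, RRP12, RRS1 and NOLC1. Of the 29, 12 held the E-box (41.4%), against 12.6% of the 10315 tested genes with a promoter and 7.26% of all 35116 promoters. These 12 were BYSL, DDX21, FBL, GAR1, GNL3, LYAR, MRTO4, NOP2, PES1, RRP9, UTP20 and WDR43. The E-box was in 5 of the 13 promoters of genes that changed at day 19 (38.5%) and in 7 of the 16 that were not called (43.8%). The 4 promoters below are printed 5′ to 3′ on the gene's own strand, with the E-box in capitals. They belong to the genes with an E-box whose fold changes were largest at day 19 among those called.
PES1: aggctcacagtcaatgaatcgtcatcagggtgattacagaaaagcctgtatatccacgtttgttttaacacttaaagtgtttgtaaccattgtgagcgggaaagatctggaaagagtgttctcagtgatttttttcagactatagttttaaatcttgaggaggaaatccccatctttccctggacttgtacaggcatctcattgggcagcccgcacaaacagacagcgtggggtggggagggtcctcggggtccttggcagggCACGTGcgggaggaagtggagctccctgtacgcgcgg
RRP9: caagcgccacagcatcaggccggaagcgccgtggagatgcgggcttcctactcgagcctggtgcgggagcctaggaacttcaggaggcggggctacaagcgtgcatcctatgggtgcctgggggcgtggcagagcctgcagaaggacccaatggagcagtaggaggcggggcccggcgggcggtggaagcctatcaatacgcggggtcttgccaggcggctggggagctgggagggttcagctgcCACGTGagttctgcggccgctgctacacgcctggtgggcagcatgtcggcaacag
DDX21: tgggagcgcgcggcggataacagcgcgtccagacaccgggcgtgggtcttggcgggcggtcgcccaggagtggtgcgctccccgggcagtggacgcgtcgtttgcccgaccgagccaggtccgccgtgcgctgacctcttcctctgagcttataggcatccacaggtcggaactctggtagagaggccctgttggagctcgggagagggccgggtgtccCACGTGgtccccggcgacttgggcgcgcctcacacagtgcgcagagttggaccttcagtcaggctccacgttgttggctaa
FBL: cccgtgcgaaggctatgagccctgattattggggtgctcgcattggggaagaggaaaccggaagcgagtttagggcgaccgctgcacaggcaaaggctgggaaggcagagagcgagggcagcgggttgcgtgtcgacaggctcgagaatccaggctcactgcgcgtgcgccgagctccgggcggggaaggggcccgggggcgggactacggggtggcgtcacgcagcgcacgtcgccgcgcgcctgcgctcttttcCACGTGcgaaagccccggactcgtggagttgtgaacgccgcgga
The windows lie at chr22:30591861-30592160 (minus strand, PES1), chr3:51941855-51942154 (minus strand, RRP9), chr10:68956397-68956696 (plus strand, DDX21) and chr19:39846330-39846629 (minus strand, FBL). The first base of the E-box lay 13 bases after the start in PES1 and 6 bases after it in FBL. It lay 5 bases before the start in RRP9 and 31 bases before it in DDX21.

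Libraries held between 21071239 and 29456271 counts. Summed levels of 6 B-cell markers ranged from 2572 to 2805 CPM at day 19 and from 2805 to 3032 CPM at day 40, against 3266 to 4121 CPM in culture, so the labelled cell type was present in every library. Sums of T-cell, myeloid, erythroid, stromal and endothelial markers stayed under 8 CPM in every library. The 8 stromal and osteolineage markers summed to 4.34 to 7.54 CPM in femur cells and 0.698 to 1.32 CPM in culture, and COL1A2, COL3A1, LUM, POSTN and CXCL12 were at 0 in all 9 libraries. The part of these differences in the results below was not tested. The titles carry dates. Counted from the culture library of each sampling period, day 19 cells were collected at 18, 19 and 19 days and day 40 cells at 11, 26 and 39 days. By these dates, day 40 replicates 1 and 2, at 11 and 26 days, were collected well short of 40 days after the culture library of their period. Day 40 replicate 1 is dated before the day 19 library of its own period, which lies at 18 days. The labels do not say whether day 40 replicates 1 and 2 came from earlier grafts or whether a day or date is wrong. Counts at day 40 are also given without them. That leaves 1 day 40 library, which is assumed to vary like the libraries of the other groups, so calls can be lost through the smaller number alone. Culture replicate 2 stood apart, with 13.2% of its counts in cytosolic ribosomal protein genes against 10.3% and 10.5% in the other culture libraries. The dates differ between libraries of a group, but the labels do not say that they are separate mice or cultures, so p-values measure the spread between these libraries.

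As a whole, the 34 genes took under 1% of the counts at each time. Their summed counts were 0.867% ± 0.053 of all gene counts in culture, 0.850% ± 0.021 in day 19 femur cells and 0.831% ± 0.023 in day 40 femur cells (SD, n = 3 each). Cytosolic ribosomal protein genes took 8.50% to 8.91% of counts at day 19 and 8.65% to 9.45% at day 40, against 10.3% to 13.2% in culture. Mitochondrially encoded genes took 7.54% to 8.67% at day 19 and 7.83% to 8.51% at day 40, against 4.83% to 6.07% in culture. Levels below are CPM, the read counts relative to library sizes scaled by TMM, the trimmed mean of M-values, which sets the bulk of genes equal between libraries. On this scale the 34 genes summed to 9024 ± 251 CPM in culture, 8323 ± 236 CPM at day 19 and 8167 ± 213 CPM at day 40. Every femur sum, at 7945 to 8596 CPM, lay below every culture sum, at 8830 to 9307 CPM. NPM1, whose level is uncertain, weighs heavily in these sums, with means of 1930 CPM in culture, 1478 CPM at day 19 and 1537 CPM at day 40. The separation of the sums rests on NPM1, which had 2155 CPM in culture replicate 2. With NPM1 taken out, the sum of culture replicate 2 lies below those of all day 19 libraries, so the groups overlap. By share of counts the groups overlapped, since culture replicate 2, at 0.806%, lay below all day 19 libraries, at 0.835% to 0.874%. In bulk RNA, fewer cells that express a gene and less of its RNA per cell cannot be told apart.

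Per kilobase of exon, which allows genes to be compared, NPM1 was the highest of the 34 in culture at 504 CPM per kb. NPM1 encodes nucleophosmin, a nucleolar histone and ribosome chaperone. NCL (nucleolin) followed at 276, FBL at 140.5, DDX21 at 116 and NOLC1 at 100.4 CPM per kb. The lowest were POLR1C at 6.57, DDX10 at 6.53 and PPAN at 5.58 CPM per kb. PPAN is uncertain, since 56.02% of its exon bases are shared with the readthrough gene PPAN-P2RY11 on the same strand.

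The comparison of day 19 femur cells with cultured cells asks how the lymphoma cells differ before and after growth in the mouse. The femur cells were also digested out, depleted with beads and sorted, so growth in the mouse and this handling cannot be told apart. Of the 34 genes, 13 fell, 1 rose and 20 were not called, where a call is an adjusted p under 0.05 in edgeR's quasi-likelihood test with Benjamini-Hochberg adjustment over all genes tested. That two-sided test gives every adjusted p below unless another is named. In the same comparison 52.8% of all genes tested were called, 26.3% higher and 26.5% lower. The 14 calls among the 34 (41.2%) were a smaller share than over all genes, and their split was 2.94% higher and 38.2% lower. The genes that fell were NHP2, PES1, NPM1, RRS1, DDX10, NIP7, RRP9, WDR12, WDR43, NOP16, DDX21, FBL and TSR1, and NOP56 rose. Changes were small. The median absolute log2 fold change was 0.10 for the 34 genes and 0.39 for all genes tested, and none of the 34 reached 1.5-fold, as 34.2% of all genes did. Their median log2 fold change was -0.078, against 0.013 for all genes tested. These comparisons were not matched for expression level. All 34 genes averaged at least 10 CPM in day 19 femur cells, as did 8739 of the 15163 genes tested. The part of expression level in the sizes of change was not tested.

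At day 40 the picture was much the same. NOP56 was again higher, and 12 genes were lower, all of them among the 13 that fell at day 19. DDX21 alone was called at day 19 and not at day 40. The background was 46.6% of all genes called, 23.3% in each direction. The median log2 fold change of the 34 genes was -0.11 at day 40, against 0.015 for all genes tested, and 25 of the 34 had a negative estimate at both days. None reached 1.5-fold, against 28.7% of all genes tested. Both days were set against the same 3 culture libraries, so their likeness is not independent.

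How many genes fell depended on the scaling and on single libraries. Scaled by total library size alone, 3 genes fell and 1 rose at day 19 (NPM1, NHP2 and PES1 lower, NOP56 higher), and 5 fell and 1 rose at day 40 (NPM1, NOP16, NHP2, PES1 and RRP9 lower, NOP56 higher). That scaling shifts the median of all genes to 0.10 at day 19 and 0.097 at day 40, and splits the calls over all genes into 4652 higher and 3216 lower at day 19, against 3994 higher and 4013 lower under TMM. At day 40 the split over all genes was 4155 higher and 2650 lower, against 3527 and 3538 under TMM. The median of the 34 genes was then 0.009 at day 19 and -0.026 at day 40. A change of scaling moves all genes alike, so the distance of the 34 genes from the median of all genes is nearly the same by construction. With TMM computed after mitochondrial and ribosomal protein genes were removed, 13 genes fell and 1 rose at each day, and the median of all genes moved only to 0.008 at day 19. The part of those classes in the falls was not tested. Leaving out day 19 replicate 2 left 7 lower at day 19, where 44.4% of all genes were called. Leaving out day 40 replicate 3 left 8 lower at day 40, where 38.7% of all genes were called. Without culture replicate 2, 14 fell at day 19 and 17 at day 40, where 49.9% and 43.5% of all genes were called. With all 9 libraries these shares over all genes were 52.8% at day 19 and 46.6% at day 40. With day 40 replicate 3 as the only day 40 library, 4 genes were called lower at day 40 (NPM1, NOP16, NHP2 and PES1) and NOP56 was not called, where 26.4% of all genes were called. All 13 genes called with 3 libraries kept their sign, and 31 of the 34 did. Day 40 replicate 3 and the culture libraries enter both estimates, so this likeness of sign is not independent. The median of the 34 genes was -0.16, against -0.11 with 3 libraries.

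**Figure D1:**
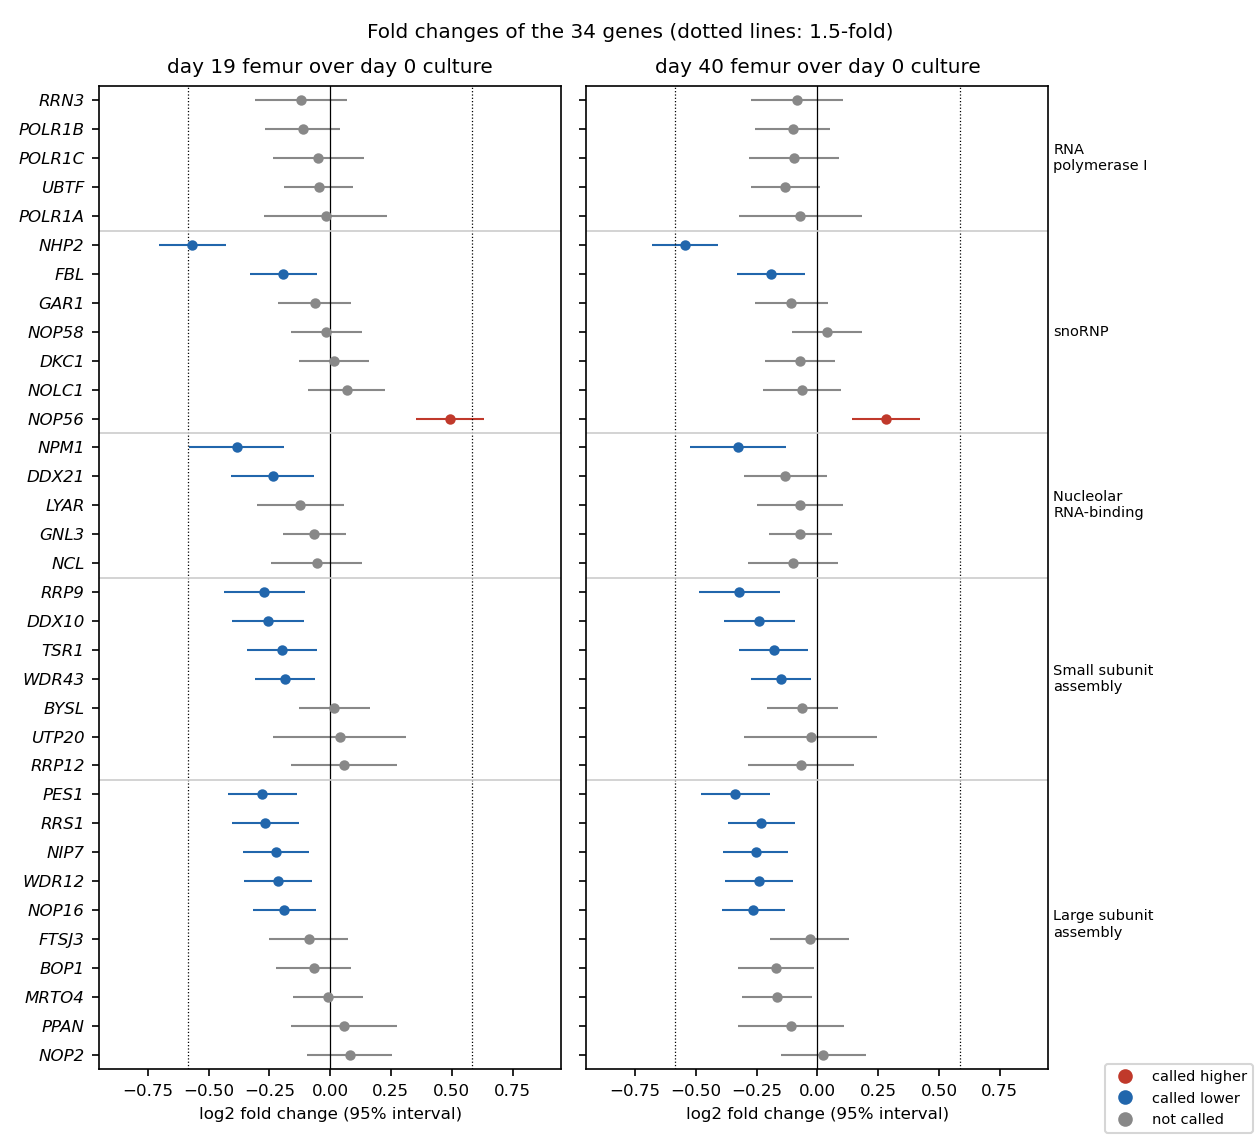
Log2 fold changes (x axis) of the 34 genes (rows, grouped by role) for day 19 femur over day 0 culture on the left and day 40 femur over day 0 culture on the right. Points are edgeR estimates, bars are 95% intervals, red and blue mark genes called higher and lower, and dotted lines mark 1.5-fold. NOP56 stands alone on the right of each panel at 0.49 and 0.28, and NHP2 is farthest to the left at -0.57 and -0.54.

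None of the 5 genes of the RNA polymerase I machinery was called at either day by edgeR, DESeq2 or limma voom. In edgeR 0 of the 5 had an unadjusted p under 0.05 at day 19 and 0 at day 40. Over all genes tested, edgeR called 52.8% at day 19 and 46.6% at day 40. POLR1A and POLR1B encode the enzyme's catalytic core subunits, and POLR1A had 169, 138 and 208 CPM in culture, 168, 169 and 172 CPM in day 19 femur cells and 149, 169 and 174 CPM in day 40 femur cells. The culture values spread widely and enclosed all 6 femur values. For POLR1A the log2 fold change was -0.018 at day 19 (95% interval -0.27 to 0.24) and -0.071 at day 40 (-0.32 to 0.18). POLR1B averaged 101 ± 6.22 CPM in culture, 93.3 ± 5.29 CPM at day 19 and 93.9 ± 5.42 CPM at day 40, with log2 fold changes of -0.11 (-0.27 to 0.042) and -0.10 (-0.26 to 0.052). POLR1C, a subunit shared with RNA polymerase III, averaged 36.5 ± 3.58 CPM in culture, 35.3 ± 1.99 CPM at day 19 and 34.1 ± 1.54 CPM at day 40. Its log2 fold changes were -0.048 (-0.23 to 0.14) and -0.097 (-0.28 to 0.088). Several genes on the opposite strand overlap POLR1C, with up to 7.06% of its exon bases each.

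UBTF, which binds the ribosomal DNA and keeps it open for transcription, had 526, 486 and 503 CPM in culture, 503, 478 and 486 CPM in day 19 femur cells and 433, 478 and 471 CPM in day 40 femur cells. All 3 day 40 values lay below the 3 culture values, while the day 19 values overlapped them. For UBTF the log2 fold change was -0.13 at day 40 (95% interval -0.28 to 0.0086, adjusted p = 0.113) and -0.046 at day 19 (-0.19 to 0.096). Without culture replicate 2, UBTF was called lower at day 40, with an adjusted p of 0.0346. RRN3, the factor that recruits RNA polymerase I to its promoter, averaged 68.04 ± 5.02 CPM in culture, 62.6 ± 2.72 CPM at day 19 and 64.3 ± 7.45 CPM at day 40, with -0.12 (-0.31 to 0.070) and -0.083 (-0.27 to 0.11). Its reads are uncertain because the annotation holds 3 named pseudogenes of it. The intervals of all 5 genes excluded a 1.5-fold change at both days.

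The 7 snoRNP genes held the largest change in each direction. Box C/D snoRNPs methylate ribosomal RNA and share core proteins that include FBL, NOP56 and NOP58. H/ACA snoRNPs isomerise uridine and share DKC1, NHP2, GAR1 and NOP10. NOP56, at chr20:2652145-2658393 on hg38, had 361, 387 and 379.7 CPM in culture, 502, 537 and 550.4 CPM in day 19 femur cells and 471, 443 and 458 CPM in day 40 femur cells. Every femur value lay above every culture value, and the 3 day 40 values lay between the culture and day 19 values. For NOP56 the log2 fold change was 0.49 at day 19 (SE 0.064, adjusted p = 4.83e-05) and 0.28 at day 40 (SE 0.064, adjusted p = 0.00351). The 95% interval at day 19, 0.35 to 0.63, included a 1.5-fold increase, and that call held in all 19 alternative analyses. With day 40 replicate 3 as the only day 40 library, the log2 fold change was 0.27 (SE 0.10, adjusted p = 0.0727). Over the 19 alternatives it stayed between 0.25 and 0.37 at day 40. The introns and exons of NOP56 hold 5 snoRNA genes, and the counts do not separate the mature mRNA from other transcripts of the gene.

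FBL encodes fibrillarin, the methyltransferase of the same C/D particle, and had 296, 321 and 298 CPM in culture, 273, 272 and 256 CPM in day 19 femur cells and 257, 281 and 264 CPM in day 40 femur cells. All femur values lay below all culture values. Its log2 fold change was -0.19 at day 19 (SE 0.064, adjusted p = 0.0229) and -0.19 at day 40 (SE 0.064, adjusted p = 0.0272). The call at day 19 was lost without day 19 replicate 2 (0.0525) or replicate 3 (0.106). That at day 40 was lost without day 40 replicate 1 (0.0815) or replicate 3 (0.0912). NOP58, the partner of NOP56 in the particle, averaged 192 ± 7.94 CPM in culture, 190.0 ± 10.8 CPM at day 19 and 197 ± 10.5 CPM at day 40, with log2 fold changes of -0.015 (95% interval -0.16 to 0.13) and 0.039 (-0.11 to 0.18). These 3 core proteins of 1 particle thus differed in call, with NOP56 higher, FBL lower and NOP58 not called.

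NHP2, at chr5:178149460-178153967, was the H/ACA member that fell. It had 115, 112 and 107 CPM in culture, 71.9, 78.8 and 74.5 CPM in day 19 femur cells and 72.5, 78.9 and 77.3 CPM in day 40 femur cells, and no femur value came near a culture value. For NHP2 the log2 fold change was -0.57 at day 19 (SE 0.063, adjusted p = 1.40e-05) and -0.54 at day 40 (SE 0.063, adjusted p = 2.97e-05), the largest fall among the 34 genes at each day. Its 95% intervals, -0.70 to -0.43 at day 19 and -0.68 to -0.41 at day 40, included a 1.5-fold decrease. RMND5B lies on the opposite strand over 27.4% of the NHP2 exon bases, and without a stated strand setting their reads cannot be told apart there. Calls for NHP2 held in all 19 alternatives at both days.

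DKC1, the pseudouridine synthase of the H/ACA particle, averaged 216 ± 12.99 CPM in culture, 218 ± 7.86 CPM at day 19 and 205 ± 9.67 CPM at day 40. Its log2 fold changes were 0.015 (95% interval -0.13 to 0.16) and -0.072 (-0.21 to 0.072). GAR1 averaged 42.3 ± 0.902 CPM in culture, 40.5 ± 1.27 CPM at day 19 and 39.3 ± 2.35 CPM at day 40, with -0.064 (-0.22 to 0.087) and -0.11 (-0.26 to 0.044), and its day 40 values lay just below those of culture. NOLC1, a chaperone of snoRNPs in the nucleolus, averaged 398 ± 34.1 CPM in culture, 418 ± 17.8 CPM at day 19 and 381 ± 14.3 CPM at day 40, with 0.068 (-0.093 to 0.23) and -0.065 (-0.22 to 0.095). DKC1, GAR1 and NOLC1 thus stayed within the bounds of these intervals, all narrower than 1.5-fold, beside the fall of NHP2.

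**Figure D2:**
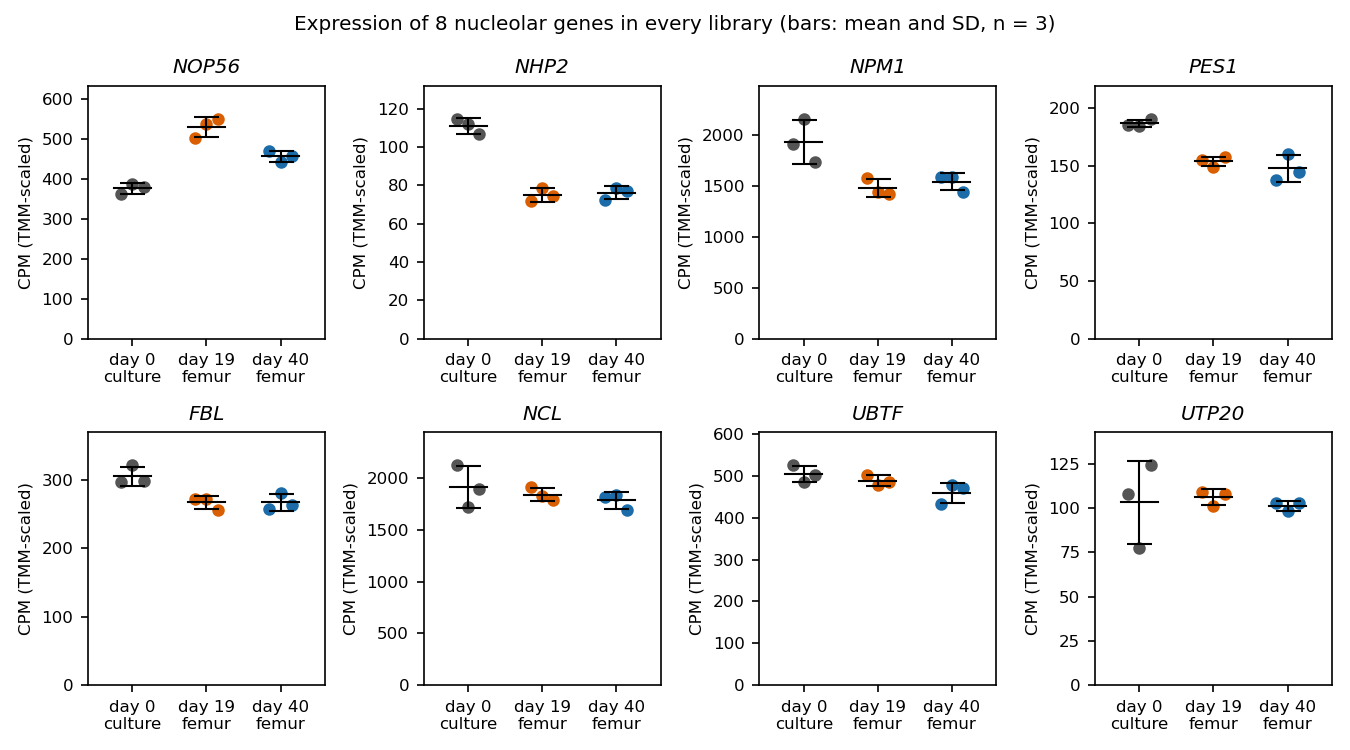
TMM-scaled CPM (y axis, from 0) of 8 of the genes in each library, by time (x axis). Points are libraries and bars are the mean and SD of 3 libraries. NOP56 in femur cells lies above all culture values, NHP2, NPM1, PES1 and FBL lie below all culture values, and the femur values of UTP20 lie within its culture range.

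Of the 5 nucleolar RNA-binding proteins, NPM1 and DDX21 fell at day 19 and NPM1 fell at day 40. NPM1, at chr5:171387116-171411137, had 1905, 2155 and 1729.7 CPM in culture, 1575, 1437 and 1421 CPM in day 19 femur cells and 1583, 1587 and 1442 CPM in day 40 femur cells. All femur values lay below the lowest culture value, and culture replicate 2 was the highest library. For NPM1 the log2 fold change was -0.39 at day 19 (SE 0.091, adjusted p = 0.00348) and -0.33 at day 40 (SE 0.091, adjusted p = 0.0107). The day 40 call was lost without day 40 replicate 3 (adjusted p = 0.0553). The annotation names 49 pseudogenes of NPM1, and how reads that match several places were handled is not given in the sources used here, so its level is uncertain. Named pseudogenes also exist for NCL, NHP2, PES1 and DDX10 (2 each), NOP56 and NIP7 (3 each), and LYAR and NOLC1 (1 each).

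DDX21, an RNA helicase that acts in ribosomal RNA transcription and processing, had 628, 523 and 589.7 CPM in culture, 526, 482 and 471 CPM in day 19 femur cells and 526, 547 and 515 CPM in day 40 femur cells. Culture replicate 2 lay below the highest day 19 value, so those groups overlapped although DDX21 was called lower. For DDX21 the log2 fold change was -0.24 at day 19 (SE 0.078, adjusted p = 0.0228) and -0.13 at day 40 (95% interval -0.30 to 0.038, adjusted p = 0.184). The day 19 call was lost without culture replicate 1 (0.0931), day 19 replicate 2 (0.0824) or day 19 replicate 3 (0.0969), and a day 40 call appeared without culture replicate 2 (0.0149). The difference between day 40 and day 19 was 0.10 (adjusted p = 0.583).

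NCL, which binds ribosomal RNA precursors and chromatin, had 2122, 1721 and 1896 CPM in culture, 1913, 1824 and 1784 CPM in day 19 femur cells and 1821, 1838 and 1694 CPM in day 40 femur cells. Its femur values lay inside the culture range except the lowest, day 40 replicate 3. For NCL the log2 fold change was -0.056 at day 19 (95% interval -0.24 to 0.13) and -0.10 at day 40 (-0.29 to 0.086). Without culture replicate 2, NCL was called lower at day 40 (adjusted p = 0.0434). GNL3, the GTPase nucleostemin, averaged 246 ± 8.59 CPM in culture, 235 ± 9.23 CPM at day 19 and 234 ± 6.29 CPM at day 40, with -0.065 (-0.19 to 0.064) and -0.070 (-0.20 to 0.059). LYAR, a nucleolar zinc-finger protein, averaged 70.9 ± 8.49 CPM in culture, 65.1 ± 0.928 CPM at day 19 and 67.5 ± 2.89 CPM at day 40, with -0.12 (-0.30 to 0.056) and -0.071 (-0.25 to 0.11). Without culture replicate 2, LYAR was called lower at day 19 (0.0102) and day 40 (0.0372).

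Of the 7 small subunit factors, 4 fell at both days, namely RRP9, DDX10, WDR43 and TSR1. That is 57.1% called at each day, against 52.8% and 46.6% of all genes. All these calls were lower, where 26.5% and 23.3% of all genes were called lower. RRP9, a protein of the snoRNP that guides the first cleavages of the precursor, had 69.00, 81.1 and 77.4 CPM in culture, 63.3, 61.05 and 64.3 CPM in day 19 femur cells and 55.8, 63.8 and 62.5 CPM in day 40 femur cells. Every femur value lay below every culture value. For RRP9 the log2 fold change was -0.27 at day 19 (SE 0.077, adjusted p = 0.0104) and -0.32 at day 40 (SE 0.076, adjusted p = 0.00456). DDX10, the helicase whose yeast counterpart releases a snoRNA from the precursor, had 58.5, 54.4 and 56.7 CPM in culture, 48.7, 44.3 and 49.2 CPM in day 19 femur cells and 46.4, 49.3 and 47.98 CPM in day 40 femur cells. It too had no overlap between femur and culture, with -0.25 at day 19 (adjusted p = 0.00728) and -0.24 at day 40 (adjusted p = 0.0118).

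WDR43, which in yeast belongs to the complex that links transcription of the precursor to its processing, had 196, 198 and 194 CPM in culture, 176, 164 and 176 CPM in day 19 femur cells and 175, 182 and 172 CPM in day 40 femur cells. Its culture values were the closest together of any of the 34 genes, and all femur values lay below them. For WDR43 the log2 fold change was -0.19 at day 19 (adjusted p = 0.0159) and -0.15 at day 40 (adjusted p = 0.0457). With the sampling period as a replicate block, the day 40 adjusted p was 0.0599. The day 19 call was lost without day 19 replicate 2 (0.0872). The day 40 call was lost in 6 of the 9 analyses that left out 1 library, with adjusted p-values between 0.0628 and 0.158.

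TSR1, a late factor of small subunit maturation, had 151, 132 and 154 CPM in culture, 128, 128 and 126 CPM in day 19 femur cells and 126, 129 and 131 CPM in day 40 femur cells. The 6 femur values were within a narrow band, and culture replicate 2 came close to it. For TSR1 the log2 fold change was -0.20 at day 19 (adjusted p = 0.0240) and -0.18 at day 40 (adjusted p = 0.0399). Leaving out 1 library ended the call in 5 of 9 analyses at day 19, with adjusted p-values from 0.0577 to 0.0773, and in 8 of 9 at day 40, from 0.0601 to 0.118. SRR, on the opposite strand, overlaps 20.7% of its exon bases.

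The 3 small subunit factors that were not called included those that varied most between culture libraries. UTP20, a very large protein of the early small subunit particle, had 108, 77.6 and 124 CPM in culture, 109, 101 and 108 CPM in day 19 femur cells and 103, 98.2 and 103 CPM in day 40 femur cells. Culture replicate 2 was the lowest and culture replicate 3 the highest of all 9 libraries, and every femur value lay between them. For UTP20 the log2 fold change was 0.040 at day 19 (95% interval -0.23 to 0.31) and -0.028 at day 40 (-0.30 to 0.25). Without culture replicate 2 it was called lower at day 40, at -0.21 (adjusted p = 0.0241). RRP12, needed in yeast for export of the subunits, had 84.1, 72.9 and 104 CPM in culture, 91.99, 88.1 and 91.2 CPM in day 19 femur cells and 81.5, 84.9 and 82.5 CPM in day 40 femur cells, with the same 2 culture libraries at the extremes. Its log2 fold changes were 0.056 (-0.16 to 0.27) and -0.068 (-0.29 to 0.15). BYSL, whose yeast counterpart acts in small subunit cleavage and export, averaged 55.8 ± 3.23 CPM in culture, 56.4 ± 1.60 CPM at day 19 and 53.4 ± 2.21 CPM at day 40, with 0.017 (-0.13 to 0.16) and -0.061 (-0.21 to 0.084).

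Of the 10 large subunit factors, 5 fell at both days, namely PES1, RRS1, NIP7, WDR12 and NOP16. PES1, BOP1 and WDR12 form the PeBoW complex, which acts in processing of the large subunit RNA. PES1, at chr22:30576625-30607083, had 185, 184 and 190.5 CPM in culture, 155, 149 and 157 CPM in day 19 femur cells and 138, 160.3 and 145 CPM in day 40 femur cells. The culture values were tight and every femur value lay below them. For PES1 the log2 fold change was -0.28 at day 19 (SE 0.065, adjusted p = 0.00333) and -0.34 at day 40 (SE 0.065, adjusted p = 0.00128), and both calls held in all 19 alternatives. WDR12 had 91.3, 85.8 and 87.2 CPM in culture, 80.6, 72.6 and 74.8 CPM in day 19 femur cells and 71.6, 78.3 and 73.8 CPM in day 40 femur cells, and no femur value reached the culture range. Its log2 fold change was -0.21 at day 19 (adjusted p = 0.0144) and -0.24 at day 40 (adjusted p = 0.00876). The day 19 call was lost without culture replicate 1 (0.0515), day 19 replicate 2 (0.0741) or day 19 replicate 3 (0.0575).

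BOP1, the third PeBoW protein, had 166, 183 and 176 CPM in culture, 165, 170.2 and 165 CPM in day 19 femur cells and 142, 169.6 and 156 CPM in day 40 femur cells. Day 40 replicate 1 was the lowest library, and the femur values overlapped the culture values at both days. For BOP1 the log2 fold change was -0.068 at day 19 (95% interval -0.22 to 0.087) and -0.17 at day 40 (-0.32 to -0.014, adjusted p = 0.0699). BOP1 was called lower at day 40 without day 40 replicate 2 (adjusted p = 0.0209) and with the replicate block by sampling period (0.0392).

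RRS1, which helps place the 5S particle in the large subunit in yeast, had 66.03, 61.4 and 66.5 CPM in culture, 53.1, 54.9 and 53.3 CPM in day 19 femur cells and 52.3, 56.3 and 56.8 CPM in day 40 femur cells. NIP7, a factor of precursor processing, had 75.8, 73.5 and 77.8 CPM in culture, 63.6, 67.7 and 63.2 CPM in day 19 femur cells and 61.2, 66.3 and 62.9 CPM in day 40 femur cells. NOP16, a large subunit assembly factor, had 64.2, 62.2 and 64.5 CPM in culture, 55.9, 54.99 and 56.6 CPM in day 19 femur cells and 54.5, 53.6 and 50.9 CPM in day 40 femur cells. In all 3 genes the femur and culture values were apart. The log2 fold changes at day 19 were -0.27 for RRS1, -0.22 for NIP7 and -0.19 for NOP16, with adjusted p-values of 0.00405, 0.00928 and 0.0183. At day 40 they were -0.23, -0.25 and -0.26, with adjusted p-values of 0.0109, 0.00533 and 0.00333. The day 19 call of NOP16 was lost without day 19 replicate 1 (0.0507) or replicate 2 (0.0697), while its day 40 call held in all 19 alternatives. Genes on the opposite strand overlap NIP7 (COG8, 20.15% of exon bases) and NOP16 (ARL10, 12.02%).

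The other large subunit factors were not called. MRTO4, a nuclear placeholder for the stalk protein of the large subunit, had 124, 121 and 118 CPM in culture, 121, 121 and 119 CPM in day 19 femur cells and 101, 118 and 105 CPM in day 40 femur cells. Its 3 day 40 values lay below all others, and its log2 fold change at day 40 was -0.17 (95% interval -0.31 to -0.024, adjusted p = 0.0539). Without day 40 replicate 2 it was called lower (adjusted p = 0.0114). NOP2, a cytosine methyltransferase of ribosomal RNA, averaged 157 ± 14.4 CPM in culture, 167 ± 9.74 CPM at day 19 and 160.1 ± 11.4 CPM at day 40. FTSJ3, counterpart of a yeast ribosomal RNA methyltransferase, averaged 93.2 ± 5.86 CPM in culture, 87.7 ± 2.80 CPM at day 19 and 91.1 ± 8.001 CPM at day 40, and PSMC5 on the opposite strand overlaps 16.77% of its exon bases. PPAN averaged 14.4 ± 0.850 CPM in culture, 15.00 ± 1.29 CPM at day 19 and 13.4 ± 0.269 CPM at day 40. Their 95% intervals at day 19 were -0.095 to 0.26 for NOP2, -0.25 to 0.074 for FTSJ3, -0.16 to 0.28 for PPAN and -0.15 to 0.13 for MRTO4, each within 1.5-fold. At day 40 they were -0.15 to 0.20 for NOP2, -0.19 to 0.13 for FTSJ3 and -0.33 to 0.11 for PPAN.

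**Figure D3:**
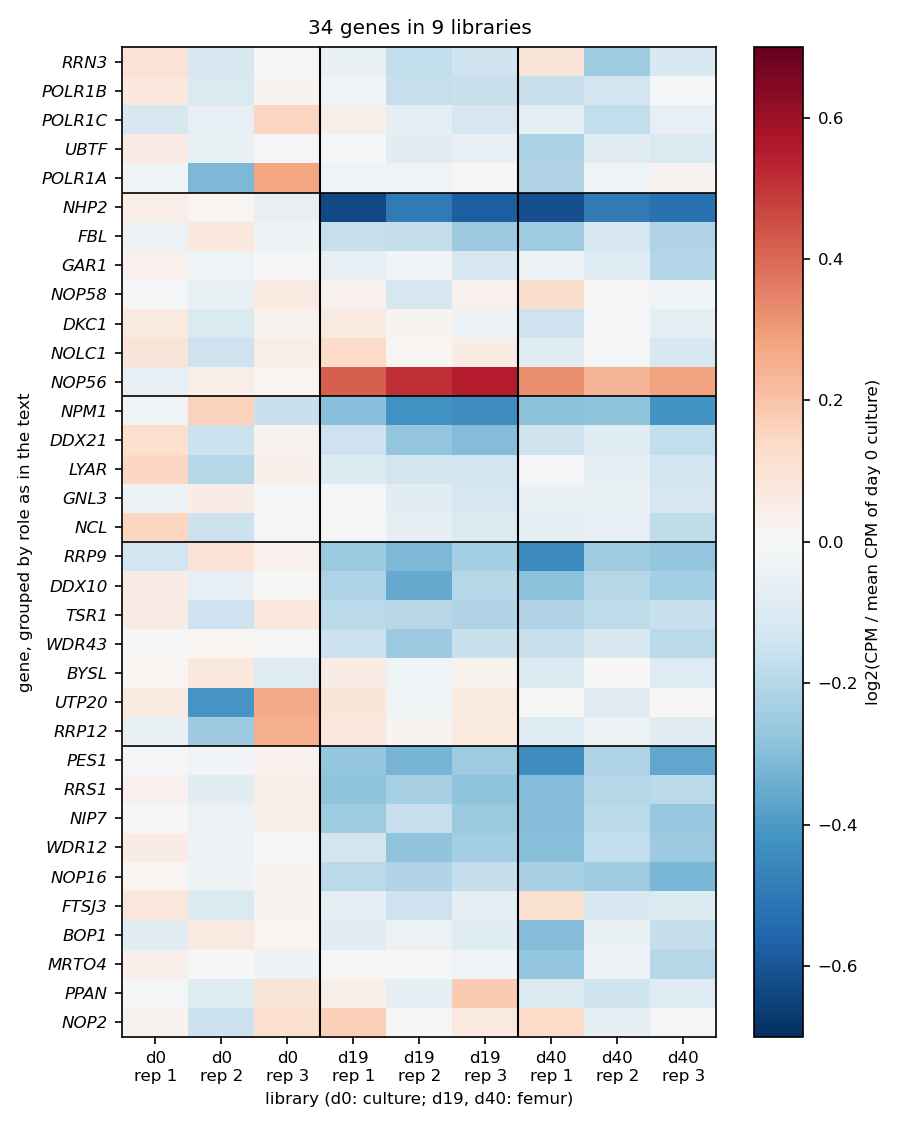
Log2 of each library's CPM over the mean culture CPM (colour scale) for the 34 genes (rows, grouped by role) in the 9 libraries (columns, by time and replicate). Rows such as NHP2 and PES1 are blue in all 6 femur libraries and NOP56 is red in all 6, while UTP20, POLR1A and RRP12 are blue in culture replicate 2 and red in culture replicate 3.

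Counted by separation alone, 12 genes had all day 19 values below all culture values and 1 had all above, where 31% and 30.6% of all genes tested did so, 61.5% together. At day 40, 17 were below and 1 above, where 54.8% of all genes were apart, 27.4% on each side. The extra genes at day 40 were MRTO4, UBTF, GAR1, GNL3 and PPAN, none of which was called. Of the 9 of the 34 genes whose introns or exons hold snoRNAs (NCL, NOP56, NOP58, DKC1, POLR1C, WDR43, GNL3, PPAN and TSR1), NOP56 was higher, WDR43 and TSR1 were lower and 6 were not called at both day 19 and day 40. That is 3 of 9 called, against 52.8% of all genes at day 19 and 46.6% at day 40.

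The genes varied little within a group. The median coefficient of variation (CV) of the 34 genes was 5.85% in culture, 3.73% at day 19 and 4.50% at day 40. Over all genes of at least 10 CPM it was 8.17%, 4.68% and 5.69%. In culture, UTP20 (22.9%), POLR1A (20.3%) and RRP12 (17.9%) had the largest CVs, and 6 of the 34 genes exceeded 10%. No gene did so at day 19, and RRN3 alone did at day 40 (11.6%). Culture replicate 2 was the lowest culture library for 23 of the 34 genes and the highest for 8. Culture replicate 2 also had the lowest TMM factor (0.914, against 0.969 to 1.029 in the other libraries) and the largest share of ribosomal protein counts, and the part of either in these values was not tested.

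**Figure D4:**
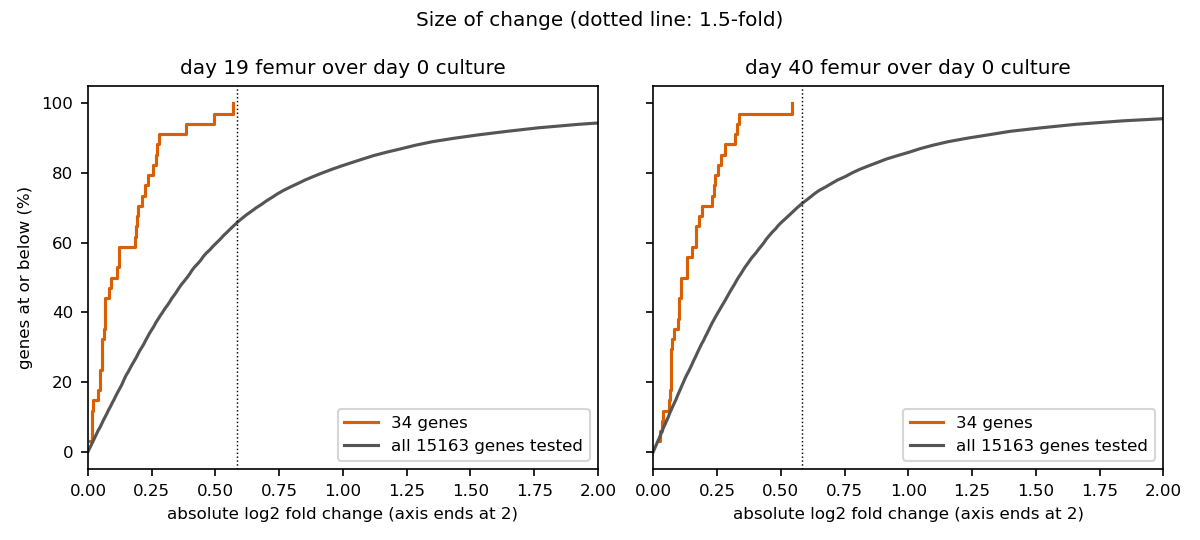
Percent of genes (y axis) whose absolute log2 fold change is at or below the value on the x axis, for the 34 genes (orange) and all 15163 genes tested (grey), at day 19 and day 40 against culture. The orange line reaches 100% before the dotted 1.5-fold line in each panel, where the grey line leaves 34.2% and 28.7% of genes beyond it. The sets are not matched for expression level.

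Between day 40 and day 19 none of the 34 genes was called by edgeR, where 4.68% of all genes tested were. When 1 library at a time was left out, that share ran from 1.85% without day 19 replicate 3 to 7.82% without culture replicate 2. With no filter on low counts it was 8.51%. In the main edgeR test 2 of the 34 genes had an unadjusted p under 0.05, namely NOP56 (0.00598) and MRTO4 (0.0336). DESeq2 called NOP56 and limma voom called none. NOP56 was lower at day 40, with 471, 443 and 458 CPM at day 40 against 502, 537 and 550.4 CPM at day 19. Its log2 fold change was -0.21 (SE 0.064, adjusted p = 0.0910 in edgeR), and its adjusted p over the 19 alternatives ran from 0.0111 to 0.687, with a call in 3. MRTO4 had 101, 118 and 105 CPM at day 40 and 121, 121 and 119 CPM at day 19, a log2 fold change of -0.16 (adjusted p = 0.242). All day 40 values lay below all day 19 values for 6 genes (NOP56, MRTO4, NOLC1, PPAN, NOP16 and RRP12) and above them for none, where 12.6% of all genes lay below and 14% above, 26.6% together. None of the 34 reached 1.5-fold between these times, as 8.97% of all genes did. Estimates for the 34 genes ran from -0.21 for NOP56 to 0.10 for DDX21.

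The other genes of the pathway were counted from lists drawn up by role. Of 182 other pathway genes without ribosomal proteins, 61 fell and 25 rose at day 19, and 61 fell and 19 rose at day 40, with median log2 fold changes of -0.11 and -0.10. In all 47.3% were called at day 19 and 44.0% at day 40, below the 52.8% and 46.6% of all genes. Scaled by total library size, 46 fell and 39 rose at day 19, and 38 fell and 23 rose at day 40. Over all genes that scaling gave 3216 lower and 4652 higher at day 19, and 2650 lower and 4155 higher at day 40. The split differed by list. Among 16 further RNA polymerase I and ribosomal DNA factors, 6 rose and 4 fell at day 19, with a median of 0.13. That is 62.5% called, against 52.8% of all genes. TAF1C and TAF1D, subunits of the promoter selectivity factor, rose. TAF1C averaged 133 ± 9.68 CPM at day 19 and 86.8 ± 11.4 CPM in culture (log2 fold change 0.61, adjusted p = 0.000148), and TAF1D averaged 219.5 ± 6.12 CPM at day 19 and 156 ± 17.5 CPM in culture (0.50, 0.000771). The polymerase subunits POLR1E and POLR1G fell, by 0.44 and 0.53 on the log2 scale, though ERCC1 overlaps 43.5% of the POLR1G exon bases. At day 40, 4 genes of this list were higher and 3 lower, 43.8% in all against 46.6% of all genes.

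Among 17 further snoRNP and modification factors, 9 fell and 1 rose at day 19, and 10 fell and none rose at day 40. At day 40, 0 had a rise at an unadjusted p under 0.05 in edgeR, and DESeq2 and limma voom called none higher. Called lower were 52.9% at day 19 and 58.8% at day 40, against 26.5% and 23.3% of all genes. NOP10, the smallest protein of the H/ACA particle and a partner of NHP2, averaged 39.7 ± 1.10 CPM at day 19 and 62.6 ± 6.60 CPM in culture (log2 fold change -0.66, adjusted p = 2.77e-05). It averaged 41.2 ± 1.29 CPM at day 40 (-0.60, 7.89e-05). In the H/ACA particle, NHP2 and NOP10 thus were lower at both days while DKC1 and GAR1 were not called. DIMT1, an adenosine dimethyltransferase of ribosomal RNA, fell by 0.60 on the log2 scale (adjusted p = 3.88e-05). PIH1D1, part of a chaperone complex for snoRNPs, was called higher at day 19 at 0.21 (adjusted p = 0.0359), a call that held in 10 of 19 alternatives.

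Of 47 further small subunit factors, 19 fell and 3 rose at day 19, and 18 fell and 3 rose at day 40. In all 46.8% and 44.7% were called, against 52.8% and 46.6% of all genes. Called lower were 40.4% and 38.3%, against 26.5% and 23.3% of all genes. UTP3 averaged 59.6 ± 2.01 CPM at day 19 and 111 ± 6.57 CPM in culture, a log2 fold change of -0.90 (adjusted p = 3.29e-07). WDR3 averaged 91.3 ± 4.73 CPM at day 19 and 131 ± 12.03 CPM in culture (-0.52, 9.58e-05), and SPAG17 overlaps 17.1% of its exon bases. Rises were seen for ESF1 at 0.44 (0.00342) and UTP25 at 0.28 (0.00255). Of 49 further large subunit factors, 21 fell and 4 rose at day 19, and 21 fell and 2 rose at day 40. NSA2, a factor of large subunit maturation, averaged 81.7 ± 6.38 CPM at day 19 and 128 ± 10.5 CPM in culture (-0.64, 2.55e-05), with 51.2% of its exon bases shared with FAM169A. NPM3, a relative of NPM1, changed by -0.48 (0.000122). The helicases DDX51 and DDX55 rose, by 0.64 (1.25e-05) and 0.42 (0.000481), and EIF2B1 overlaps 9.38% of the DDX55 exon bases.

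Of 14 genes of the RNA exosome and its cofactors, which trim and degrade ribosomal RNA precursors, 3 fell and 2 rose at day 19. At day 40, 4 fell and 1 rose. In all 35.7% of the list was called at each day, below the 52.8% and 46.6% of all genes. Scaled by total library size, 2 fell and 3 rose at day 19, and 3 fell and 2 rose at day 40. Over all genes that scaling gave 3216 lower and 4652 higher at day 19, and 2650 lower and 4155 higher at day 40. MTREX, the exosome's helicase, changed by -0.51 at day 19 (2.84e-05) and C1D by -0.51 (0.000887). EXOSC10 rose by 0.38 (0.000324), with an antisense gene over 36.6% of its exon bases, and EXOSC2 was called higher at 0.15 (0.0426), a call that held in 4 of 19 alternatives. Of 21 RNA polymerase III genes, 4 fell and 1 rose at day 19, and 4 fell and 2 rose at day 40. The direction of that split depended on the scaling, as it did over all genes. By total library size 3 fell and 5 rose at day 19, and 3 fell and 3 rose at day 40. POLR3G and POLR3GL, alternative forms of 1 subunit, both fell, with log2 fold changes of -0.74 (4.08e-06) and -0.92 (1.20e-05), though another gene overlaps 21.2% of the POLR3GL exon bases. GTF3C4 was called higher at 0.23 (0.0262), a call that held in 15 of 19 alternatives. With 23.8% of its genes called at day 19 and 28.6% at day 40, the polymerase III list was below the 52.8% and 46.6% of all genes.

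The snoRNA host genes went the other way. Of 19, 9 rose and 1 fell at day 19, and 8 rose and 1 fell at day 40, with medians of 0.23 and 0.099. In all 52.6% and 47.4% were called, near the 52.8% and 46.6% of all genes. Called higher were 47.4% and 42.1%, against 26.3% and 23.3% of all genes. These are mostly noncoding genes whose introns release snoRNAs. SNHG12 averaged 102 ± 2.79 CPM at day 19 and 49.6 ± 7.66 CPM in culture (1.04, adjusted p = 1.97e-06). SNHG1 averaged 352 ± 18.97 CPM at day 19 and 175 ± 25.5 CPM in culture (1.01, 2.57e-06). The gene that fell was SNHG5, with 379.5, 350.5 and 359 CPM at day 19 against 480.1, 787 and 532 CPM in culture (-0.72, 0.00108), and culture replicate 2 was its highest library. TAF1D stands in this list and in the polymerase I list.

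Cytosolic ribosomal protein genes moved most evenly. Of 86 tested, 79 fell and none rose at day 19, and 75 fell and none rose at day 40. That was 91.9% and 87.2% lower, against 26.5% and 23.3% of all genes. At an unadjusted p under 0.05 edgeR gave 1 rise at day 19 and 0 at day 40. DESeq2 called none higher at either day, and limma voom called 1 at day 19 and none at day 40. The median log2 fold change was -0.50 at day 19 and -0.43 at day 40, against -0.078 and -0.11 for the 34 genes. RPS27L, a relative of the small subunit protein gene RPS27, had 21.2, 20.7 and 21.9 CPM at day 19 and 45.3, 53.7 and 54.9 CPM in culture (-1.27, 1.90e-06). Genes of this list have many pseudogene copies, so single members are uncertain. Scaled by total library size, 74 fell at day 19 and 63 at day 40. Over all genes that scaling gave 3216 lower and 4652 higher at day 19, and 2650 lower and 4155 higher at day 40. By that scaling the other large subunit factors had 16 falls and 7 rises at day 19 and 9 falls and 3 rises at day 40. The small subunit list had 13 falls and 4 rises at day 19 and 12 and 3 at day 40, and the snoRNP list 8 and 2 at day 19 and 7 and 0 at day 40. The 7 snoRNP genes among the 34 had 1 fall and 1 rise at each day.

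With day 40 replicate 3 as the only day 40 library, only effect sizes are given for these lists at day 40. The median log2 fold change of the 182 other pathway genes was -0.145, against -0.012 for all genes tested. By list the median was -0.19 for the small subunit factors, -0.19 for the large subunit factors and -0.33 for the snoRNP factors. It was 0.072 for the polymerase I factors, -0.076 for the polymerase III genes and -0.11 for the exosome genes. For snoRNA host genes the median was 0.078. For ribosomal protein genes it was -0.44, against -0.43 with 3 libraries.

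**Figure D5:**
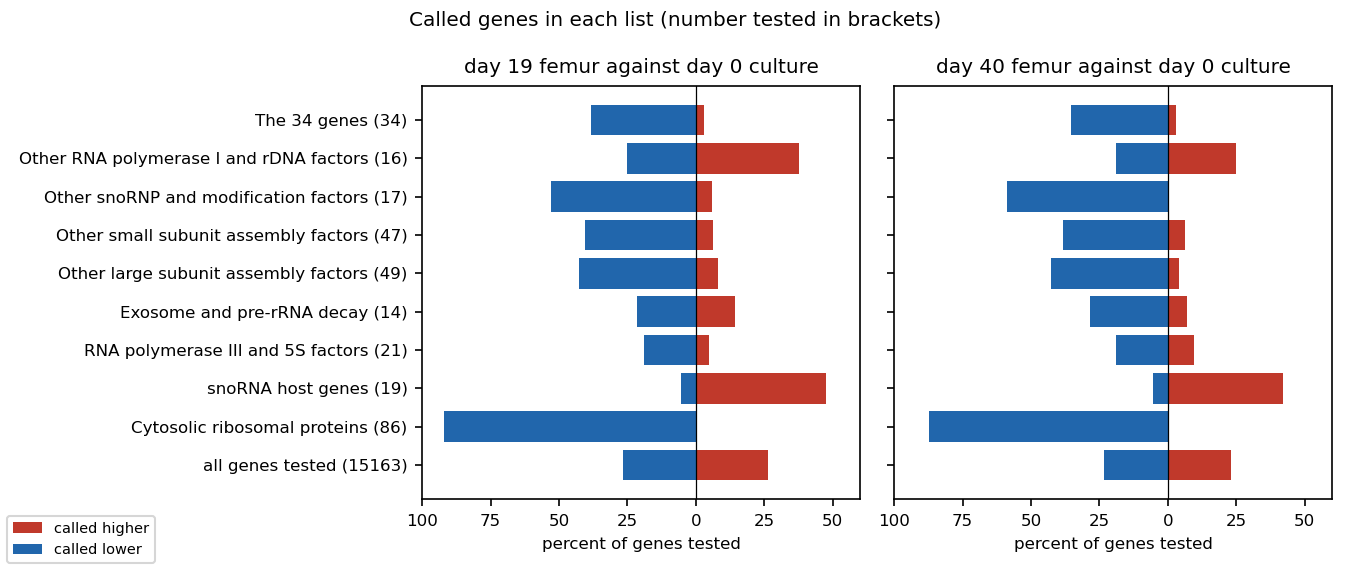
Percent of tested genes called higher (red, to the right) and lower (blue, to the left) for the 34 genes, 8 other lists and all genes tested, at day 19 and day 40 against culture. Ribosomal protein genes are lower in 91.9% and 87.2% of cases, snoRNA host genes are higher in 47.4% and 42.1%, and all genes tested split almost evenly.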

How the data were processed

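Bulk RNA-seq of DOHH2 cells was analysed from 9 libraries, grouped by the sampling day in the labels. The authors deposited raw gene counts in whole numbers for 58243 Ensembl identifiers. The submitters' processing notes name FastQC 0.11.5, STAR 2.5.2a, the hg38 build, featureCounts 1.4.6 and DESeq2 1.40.1. Not given in the sources used here are the annotation, the strand setting and the treatment of multi-mapping and mouse reads. Symbols, positions and overlaps were taken from GENCODE 29, which named 57980 identifiers.

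Genes were filtered with filterByExpr, scaled by TMM and tested in R 4.3.3 with edgeR 4.0.16 by the quasi-likelihood F-test, in 1 fit of all 9 libraries with a coefficient per group. Benjamini-Hochberg adjustment ran over 15163 genes, with calls under 0.05. CPM values are given as mean ± SD of 3 libraries. Read counts carry no molecular identifiers, so they are not counts of molecules. Alternatives used DESeq2 1.42.0, limma 3.58.1 (voom), other scalings and filters, and fewer libraries.

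The genes and lists were chosen with earlier results of these data known. All 34 genes are named. Of the other lists, up to 2 called genes per list and direction with the smallest p at day 19 are named, except 1 ribosomal protein gene that is not reported here.

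Replicate numbers follow accession order, and by the titles' dates each number is 1 sampling period. Deviations from group means of same-numbered libraries correlated at 0.036, -0.067 and 0.162 between culture and day 19, at 0.112, 0.248 and 0.204 between culture and day 40, and at 0.158, 0.169 and 0.357 between day 40 and day 19. Between culture and day 19 only period 3 passed a limit of 0.1, while every period did in the other comparisons. So few correlations cannot decide whether libraries of a period are paired. The main fit did not use the period, which is a replicate block in 1 alternative.

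On simulated counts with 200 changed genes of the 15163, log2 changes of 0.5, 1 and 2 were recovered in 68.7%, 100% and 100% of cases for day 19 against culture, with 4.79% false calls. For day 40 against culture these were 74.6%, 97.0% and 100%, with 5.24% false calls. For day 40 against day 19 they were 65.7%, 97.0% and 100%, with 8.85% false calls. In the real counts 8007 of the 15163 genes were called for day 19 against culture. With 200 changed genes, the simulation cannot show recovery, false calls or scaling under changes that broad. The median absolute log2 fold change of the named nucleolar genes was 0.1 at day 19 and 0.12 at day 40. Recovery of changes below 0.5 was not tested.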

Additional observations from a re-analysis of the deposited data

Results flagged for a closer look

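UTP3, a small subunit factor outside the 34 genes, was flagged because its effects at day 40 and day 19 differ in a test of the difference itself. Its day 40 effect minus its day 19 effect was 0.319 on the log2 scale (SE 0.065, edgeR adjusted p = 0.0147). UTP3 had 118, 105 and 109.9 CPM in culture, 58.7, 61.9 and 58.2 CPM in day 19 femur cells and 77.5, 72.2 and 73.3 CPM in day 40 femur cells. Every day 40 value lay above every day 19 value and below every culture value. The call between the femur times held in 15 of 19 alternatives, with adjusted p-values from 0.00096 to 0.336, and was lost without day 19 replicate 1, day 19 replicate 3, day 40 replicate 1, or day 40 replicates 1 and 2 together. It was the only gene called between day 40 and day 19 among the 182 other pathway genes and the 86 ribosomal protein genes. Groups of 3 libraries were not tested for outliers.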

How the results depend on the processing

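All 19 alternatives were run. No called value of the 34 genes changed sign. At day 19 against culture, 618 of 646 values (34 genes under 19 alternatives) kept their direction and side of the threshold, 27 calls were lost and 1 was gained. At day 40 it was 597, 40 and 9 of 646, and between day 40 and day 19 it was 643, 0 and 3. Values that were not called crossed 0 in 31, 22 and 30 cases. Calls of NPM1, NOP56, NHP2 and PES1 at day 19, and of NOP16, NHP2 and PES1 at day 40, held throughout. With total library size in place of TMM, 3 of the 34 genes were lower at day 19 and 5 at day 40. Over all genes 3216 were then lower and 4652 higher at day 19, and 2650 lower and 4155 higher at day 40. Leaving out each library in turn gave 7 to 14 lower at day 19 and 8 to 17 at day 40. In these fits 44.4% to 52.9% of all genes were called at day 19 and 38.7% to 44.3% at day 40. Without day 40 replicates 1 and 2 together, which leaves 1 day 40 library with the spread taken from the other groups, 4 were lower and 0 higher at day 40, and over all genes 4065 were called at day 40 against culture and 99 between day 40 and day 19. Between day 40 and day 19, 1 of the 34 genes (NOP56) was lower with DESeq2 and with only the 2 groups in the fit, and 0 to 1 when libraries were left out in turn, with the call appearing without culture replicate 2. Over all genes, 710 were called between day 40 and day 19, 1324 with no filter on low counts, 1100 with only the 2 groups, and from 280 (without day 19 replicate 3) to 1193 (without culture replicate 2). With the replicate block by sampling period, counts over the 34 genes stayed at 13 lower and 1 higher at day 19, 12 lower and 1 higher at day 40 and 0 between the femur times. Over all genes the block gave 8319, 7361 and 966 calls. At day 40 it ended the call of WDR43 and added BOP1, and it changed no other call of the 34 genes. The cause of these shifts was not tested. The lowest count of the 34 genes in any library was 296, and the part of depth was not tested.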
